A study of Homo sapiens with 6 samples.

Results

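The genes of glucose uptake, glycolysis, lactate handling and the pentose phosphate pathway were examined in MM.1S cells after knockdown of PRMT1, an enzyme that methylates arginine residues of proteins. The 34 genes were taken by symbol from a table of 58735 genes: 3 glucose transporters, 13 genes of upper glycolysis, 6 of lower glycolysis, 5 of lactate production and export, 6 of the pentose phosphate pathway, and HIF1A, a transcription factor that drives many of them. MM.1S is a long-established line of human malignant plasma cells (multiple myeloma). There were 3 control libraries (si-NC, a negative control siRNA) and 3 PRMT1 KD libraries (si-PRMT1). Both groups come from transient transfection of the same single cell line. The control and PRMT1 KD samples are labelled by genotype and replicate number only, and which PRMT1 siRNA was used for these libraries is not named. The study describes its replicates as dependent biological replicates, and nothing in the labels says that they came from separate cultures, so p-values measure the spread between these libraries, which may be technical.

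Glycolysis splits glucose to pyruvate in the cytosol and yields ATP and NADH. Its upper part spends ATP to trap and cleave the sugar, its lower part recovers ATP, and lactate dehydrogenase regenerates NAD+ from pyruvate, with the lactate exported by monocarboxylate transporters. The pentose phosphate pathway branches off after the first phosphorylation and supplies NADPH and ribose for nucleotides. Most steps are served by several paralogs with different kinetics and regulation, so that a cell type is marked by which paralog it uses as well as by the total. Malignant plasma cells are secretory cells with high demand for both energy and biosynthesis.

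Levels are given in FPKM, the fragments on a gene relative to the length of its exons and to the size of the library. For all 34 members this length joins every annotated exon, whether or not it is used in these cells. Levels and shares of different genes can therefore be set side by side only roughly. The libraries held between 14439217 and 16465026 reads as worked back from the FPKM values. PRMT1 itself was at 61.7, 62.8 and 58.9 FPKM in the control libraries and at 13.3, 14.02 and 12.5 FPKM in the PRMT1 KD libraries, 21.7% of the control mean. Its difference in log2(FPKM + 1) was -2.13 (SE 0.055), with a limma adjusted p of 2.77e-05. All 8 plasma cell markers had a mean of at least 1 FPKM, with a summed level of 1291 to 1372 FPKM in the control and 1291 to 1462 FPKM in the PRMT1 KD libraries. The 4 myeloid, 3 stromal and 3 erythroid markers summed to under 1 FPKM in every library, and MS4A1 of the 3 B cell markers was at 0. Of the 3 T cell markers, CD3E was at 32.1 to 35.6 FPKM in control and 36.5 to 39.0 FPKM in PRMT1 KD libraries, while CD3D stayed under 1 FPKM and CD2 was at or near 0. The part of CD3E and its source in the values below was not tested. In bulk RNA, fewer cells with a transcript and less of it per cell cannot be told apart.

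Of the 34 genes, 28 had a mean of at least 1 FPKM over the 6 libraries and were tested. A mean above 100 FPKM was reached by 5 genes, all of them for steps after the cleavage of the sugar: GAPDH, ENO1, TPI1, PGAM1 and PGK1. After knockdown 1 gene changed, ENO1, which fell. That is 3.57% of the members tested, against 2.05% of all 13585 genes tested that had a limma adjusted p under 0.05, 0.986% of them lower and 1.07% of them higher. Of the 28 genes, 15 had a higher and 13 a lower mean in PRMT1 KD. The median difference in log2(FPKM + 1) was 0.036 over the members and 0.0095 over all genes tested. The 3 PRMT1 KD libraries lay entirely on 1 side of the 3 control libraries for 8 members (28.6%), 2 higher and 6 lower, against 25.9% of all genes tested. An unadjusted p under 0.05 was found for 6 members (21.4%), against 19.5% of all genes tested. With limma's voom on the reads worked back, which called 6.56% of all genes tested, ENO1 was again the single member called (adjusted p = 2.47e-05). The shares of members that did not overlap or had an unadjusted p under 0.05 lay near those of all genes. The 95% intervals of the differences reached 0.10 to 0.28 to either side on the log2 scale, with a median of 0.15, and the tested members other than ENO1 lay between -0.26 and 0.19 on this scale, which understates the change of low genes.

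**Figure D1:**
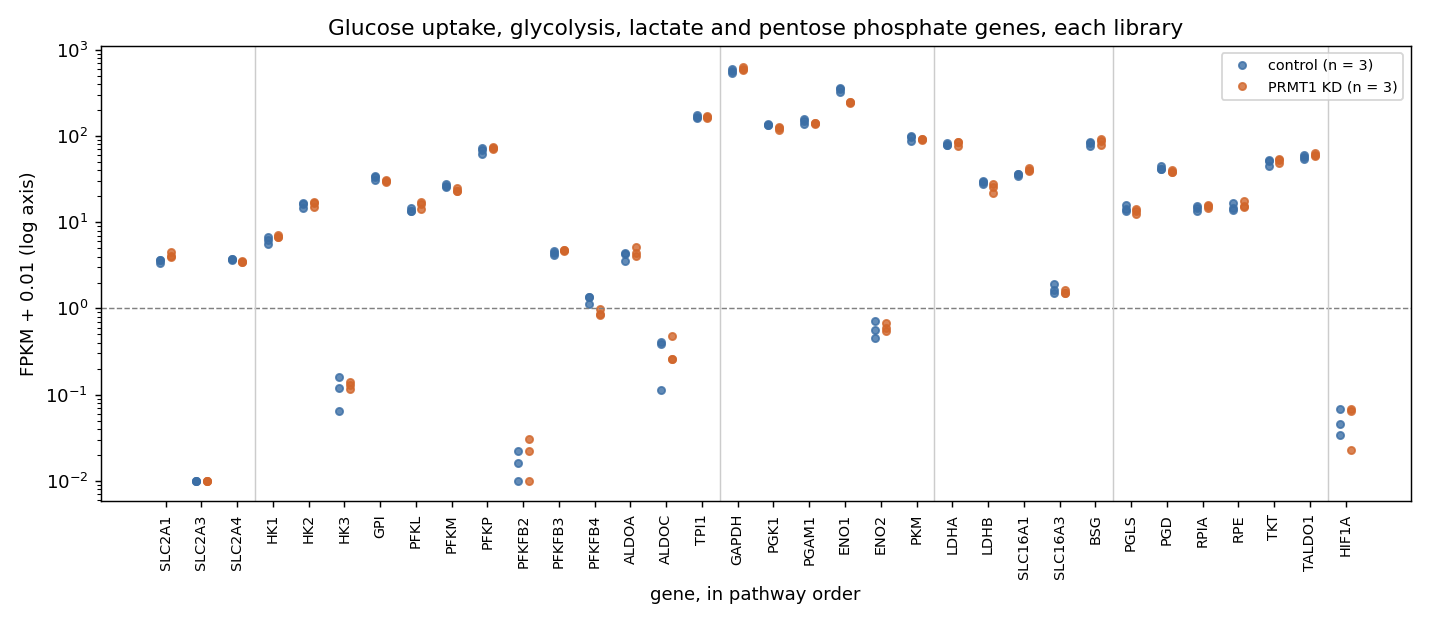
FPKM + 0.01 (log axis) of the 34 genes in pathway order, with 1 point per library for the 3 control (blue) and 3 PRMT1 KD (orange) libraries, the dashed line marking the 1 FPKM mean needed for testing and grey lines separating the parts of the pathway. Points of both groups lie close together for most genes, and the ENO1 points of PRMT1 KD sit below those of control.

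Glucose enters the cells through facilitated transporters. SLC2A1 (GLUT1), the transporter of most proliferating cells, was at 3.63, 3.61 and 3.39 FPKM in control and 4.06, 4.50 and 3.99 FPKM in PRMT1 KD libraries. SLC2A4 (GLUT4), the insulin-responsive transporter of muscle and fat, was at 3.72, 3.62 and 3.71 FPKM in control and 3.58, 3.48 and 3.47 FPKM in PRMT1 KD libraries. The groups did not overlap for either gene, one lying higher and the other lower, but neither passed the limma test: the difference was 0.19 (95% interval 0.02 to 0.35, limma adjusted p = 0.200) for SLC2A1 and -0.05 (-0.20 to 0.09, limma adjusted p = 0.676) for SLC2A4. SLC2A1 thus made up 49.1% ± 1.13 (SD, n = 3) of the summed FPKM of the 3 transporters among the members in control and 54.3% ± 1.76 in PRMT1 KD, with no overlap of the libraries. This share leaves out other SLC2A genes at similar levels. SLC2A6, SLC2A8 and SLC2A11 had means of 3.33, 3.18 and 2.80 FPKM in control and 2.95, 3.15 and 2.26 FPKM in PRMT1 KD. By exact permutation (two-sided) p was 0.1, and 3 libraries against 3 can give no smaller value. SLC2A3 (GLUT3), a high-affinity transporter, was listed at 0 in all 6 libraries.

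Hexokinases phosphorylate glucose and so hold it in the cell. HK2, the inducible form, was the leading paralog, at 16.5, 16.6 and 14.7 FPKM in control and 16.99, 16.9 and 15.2 FPKM in PRMT1 KD libraries. HK1, the form of most tissues, had a mean of 6.21 FPKM in control and 6.88 FPKM in PRMT1 KD, and HK3 stayed under 1 FPKM and was not tested. HK2 made up 71.7% ± 0.923 (SD, n = 3) of the hexokinase FPKM in control and 70.0% ± 1.05 in PRMT1 KD, and the libraries overlapped. GPI, which isomerises glucose 6-phosphate to fructose 6-phosphate, had a mean of 32.7 FPKM in control and 30.2 FPKM in PRMT1 KD, with a difference of -0.11 (95% interval -0.24 to 0.01, limma adjusted p = 0.304).

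Phosphofructokinase commits the sugar to glycolysis and works as a tetramer of the subunits PFKL (liver), PFKM (muscle) and PFKP (platelet). PFKP was the leading subunit, at 69.0, 71.9 and 62.6 FPKM in control and 74.5, 72.8 and 70.0 FPKM in PRMT1 KD libraries. PFKM was at 26.7, 27.6 and 25.3 FPKM in control and 23.4, 24.9 and 22.9 FPKM in PRMT1 KD libraries, the latter all lower. The difference for PFKM was -0.16 (95% interval -0.28 to -0.03), which did not pass the adjusted threshold (limma adjusted p = 0.174). PFKL had a mean of 13.9 FPKM in control and 15.9 FPKM in PRMT1 KD, with overlapping libraries and a difference of 0.18 (0.01 to 0.35, limma adjusted p = 0.229). PFKM made up 24.5% ± 0.379 (SD, n = 3) of the subunit FPKM in control and 21.2% ± 0.760 in PRMT1 KD, and PFKP 62.6% ± 0.887 and 64.6% ± 0.735, without overlap in either case (exact permutation p = 0.1 each). By reads, with no length taken into account, PFKP made up 50.7% in control and 52.6% in PRMT1 KD. The share of PFKL overlapped by FPKM and lay higher without overlap by reads.

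The bifunctional PFKFB enzymes set the level of fructose 2,6-bisphosphate, the strongest activator of phosphofructokinase. PFKFB3, the form with the highest ratio of kinase to phosphatase activity, was at 4.37, 4.62 and 4.13 FPKM in control and 4.59, 4.76 and 4.74 FPKM in PRMT1 KD libraries. PFKFB4 was at 1.35, 1.34 and 1.12 FPKM in control and 0.863, 0.978 and 0.828 FPKM in PRMT1 KD libraries. PFKFB4 stood lower in every PRMT1 KD library, at 70.0% of the control mean, but at this level its interval was the widest of the members (-0.54 to 0.01, limma adjusted p = 0.275). The difference for PFKFB4 depends on the scale: it was -0.26 with a pseudocount of 1, -0.47 with a pseudocount of 0.1 and -0.52 by voom on the reads, as large as that of ENO1, and passed the adjusted threshold under none of them (limma adjusted p = 0.0617 by voom). PFKFB3 made up 77.4% ± 1.08 (SD, n = 3) of the PFKFB signal in control and 83.9% ± 1.23 in PRMT1 KD without overlap (exact permutation p = 0.1), a difference of 6.50 percentage points, the largest of any leading paralog. PFKFB2, the heart form, had no more than 0.0204 FPKM in any library.

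Aldolase cleaves fructose 1,6-bisphosphate, and triosephosphate isomerase interconverts the products. ALDOA was at 4.41, 4.26 and 3.54 FPKM in control and 5.13, 4.03 and 4.36 FPKM in PRMT1 KD libraries, far below TPI1, which had a mean of 169 FPKM in control and 166 FPKM in PRMT1 KD. Of the exon bases of ALDOA in GENCODE 29, 42.3% are shared on the same strand with AC093512.2, a gene that held 9.79% as many reads as ALDOA, so that the level of ALDOA depends on how reads in shared exons were assigned, which is not stated in the sources used here. ALDOC, the brain form, stayed under 1 FPKM. The difference was 0.12 (95% interval -0.13 to 0.36, limma adjusted p = 0.573) for ALDOA and -0.02 (-0.13 to 0.09, limma adjusted p = 0.860) for TPI1.

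**Figure D2:**
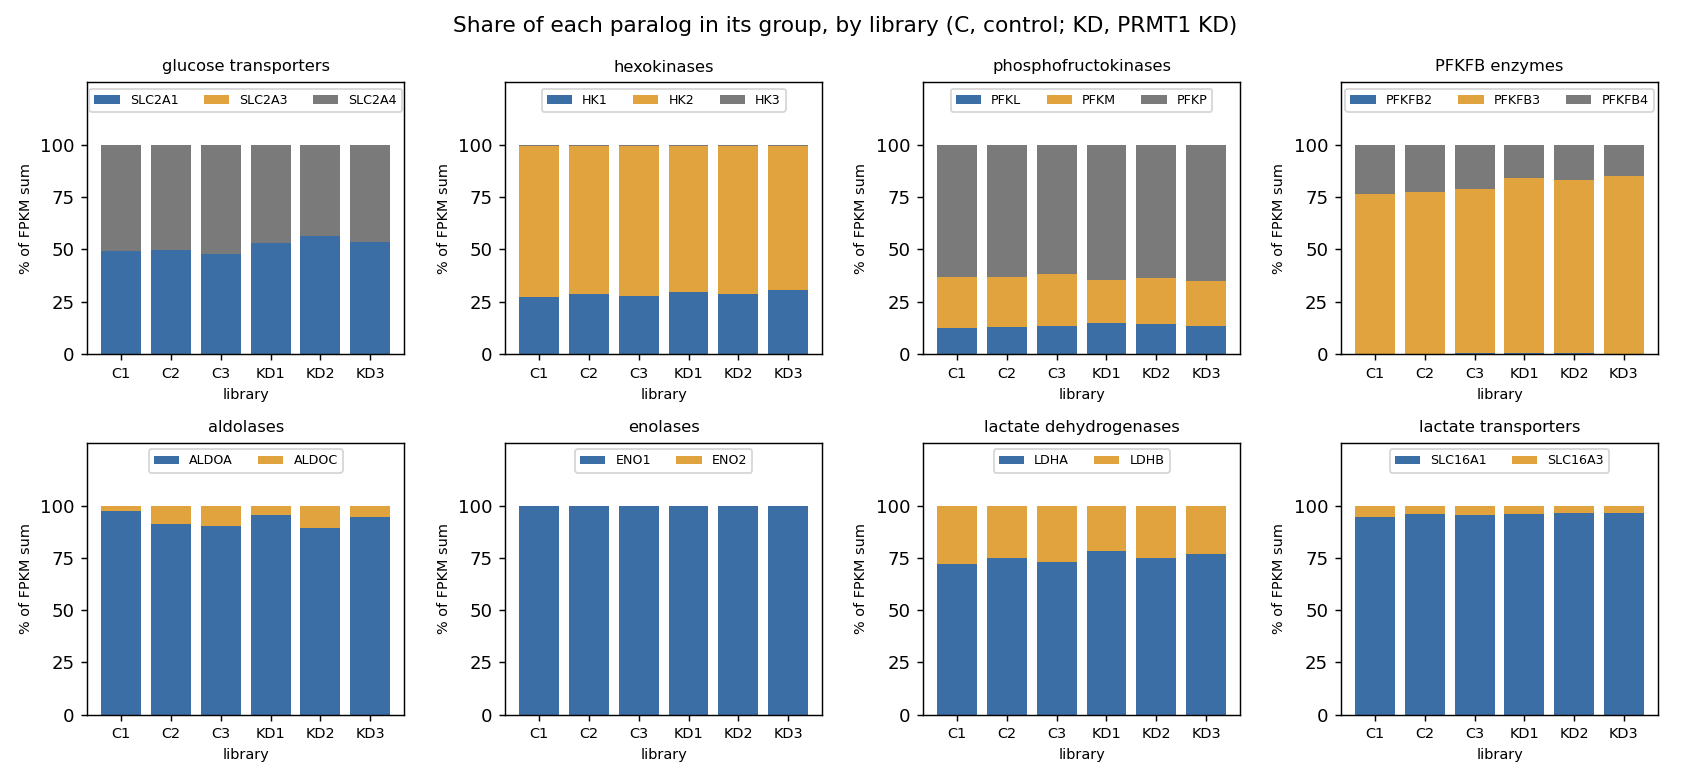
Share of each paralog in the summed FPKM of its group (%, stacked to 100) in each control (C1 to C3) and PRMT1 KD (KD1 to KD3) library, for 8 groups of paralogs. PFKFB3 averages 77.4% of its group in control and 83.9% in PRMT1 KD libraries, LDHA 73.4% and 76.8%, while ENO1 makes up nearly all of the ENO1 and ENO2 signal in every library.

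In lower glycolysis, ENO1 was the gene that changed. ENO1 encodes alpha-enolase, which turns 2-phosphoglycerate into phosphoenolpyruvate. It lies on chromosome 1 (chr1:8861000-8879250, minus strand, GRCh38; ENSG00000074800). ENO1 was at 349.8, 359.7 and 323.6 FPKM in control libraries and at 244.8, 250.01 and 252.2 FPKM in PRMT1 KD libraries. The highest PRMT1 KD library thus lay well below the lowest control library, and the PRMT1 KD mean was 72.3% of the control mean. The difference in log2(FPKM + 1) was -0.47 (SE 0.050, 95% interval -0.58 to -0.35), with a limma adjusted p of 0.0154 over all genes tested and an exact permutation p of 0.1. The fall rested on 30567, 30608 and 28218 reads in control and 21323, 18990 and 20271 reads in PRMT1 KD libraries. Among the 329 genes with a mean of at least 100 FPKM, of which 6.08% were called in either direction and 8 were called lower, ENO1 had the third largest fall. The call was lost when any 1 library other than control replicate 3 was left out, with a limma adjusted p of up to 0.111, and the difference itself stayed between -0.51 and -0.43 under all 14 alternatives.

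The steps on either side of enolase did not show a fall of that size. GAPDH, which makes 1,3-bisphosphoglycerate and NADH, was at 576.0, 595.9 and 544.0 FPKM in control and 584.2, 602.7 and 640.8 FPKM in PRMT1 KD libraries, the highest level of all members (difference 0.09, 95% interval -0.04 to 0.22, limma adjusted p = 0.416). PGK1, which makes the first ATP of the pathway, was at 134.1, 139.3 and 133.8 FPKM in control and 117.9, 126.0 and 124.3 FPKM in PRMT1 KD libraries. The PGK1 libraries did not overlap, at 90.4% of the control mean, but the difference of -0.14 (95% interval -0.25 to -0.04) did not pass the adjusted threshold (limma adjusted p = 0.135). PGAM1, the mutase that supplies enolase with its substrate, had a mean of 148 FPKM in control and 141 FPKM in PRMT1 KD, and PKM, the pyruvate kinase that uses its product, 96.1 and 91.5 FPKM. Their differences were -0.06 (-0.19 to 0.07, limma adjusted p = 0.563) and -0.07 (-0.20 to 0.07, limma adjusted p = 0.567). ENO2, the neuronal enolase, was under 1 FPKM in every library and made up less than 1% of the ENO1 and ENO2 signal.

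The ratio of ENO1 to its neighbours was computed within each library, after the fall of ENO1 had been seen, so that scaling between libraries cannot enter. ENO1 stood at 2.33 ± 0.041 (SD, n = 3) times the FPKM of PGAM1 in control and 1.77 ± 0.016 times in PRMT1 KD. Against PKM it went from 3.59 ± 0.058 to 2.72 ± 0.094, and against GAPDH from 0.602 ± 0.0064 to 0.409 ± 0.014. Against PGK1 it went from 2.54 ± 0.102 to 2.03 ± 0.045 and against TPI1 from 2.04 ± 0.042 to 1.498 ± 0.033. The libraries of the groups did not overlap for any of the 5 ratios. All 5 ratios share the ENO1 values, which were picked for their fall, so they are no separate evidence of it.

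**Figure D3:**
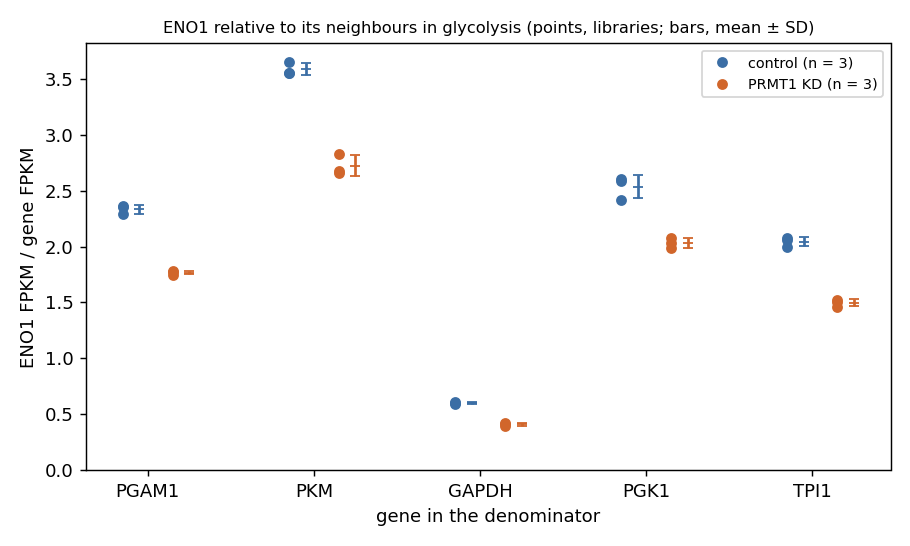
ENO1 FPKM divided by the FPKM of 5 other glycolysis genes in each of the 3 control (blue) and 3 PRMT1 KD (orange) libraries, with bars for mean ± SD. The ratio is lower in all 3 PRMT1 KD libraries for each denominator, from 2.33 to 1.77 against PGAM1 and from 0.602 to 0.409 against GAPDH.

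An siRNA acts through its guide strand, which pairs with a target transcript, and pairing at the guide's 5′ end weighs most. The study lists 3 siRNAs against PRMT1, and which of them was used for the sequenced libraries is not named. Their target sequences were compared with the protein-coding transcripts of 10096 tested genes other than PRMT1, after the fall of ENO1 had been seen. The target of si-PRMT1-3 and its best site in ENO1 are shown because their shared run, in capitals, is as long as any found for that siRNA, both written 5′ to 3′ in the sense of the transcript:

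si-PRMT1-3: ccatcGACCTGGACTTCAA

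ENO1 site: agtatGACCTGGACTTCAA

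The run covers 14 bases, positions 6 to 19 of the 19-base target counted from its 5′ end, which pair with guide bases 1 to 14. The site lies at chr1:8865365-8865383 (GRCh38, minus strand), in exon 8 of ENST00000234590, inside the coding sequence, and is present in 6 annotated ENO1 transcripts. Only 4 of the 10096 genes (0.0396%) held a run of 14 bases with si-PRMT1-3, and none held a longer one. The other 27 tested members had a longest run of 6 to 10 bases, the longest in HK1 and PFKFB3, and the median over all genes was 8. A shorter match, to guide bases 2 to 8 of si-PRMT1-3, was searched in the stretches after the coding sequence (3′ UTRs). It stood in 5 members, HK1, PFKL, PFKM, PFKFB4 and ENO1, and in 18.6% of 10102 genes. Among these members HK1 and PFKL had a higher and PFKM, PFKFB4 and ENO1 a lower mean in PRMT1 KD. With si-PRMT1-1 and si-PRMT1-2, the longest run in protein-coding transcripts of ENO1 was 7 bases, which 86.2% and 80.3% of the genes reached (8 bases for si-PRMT1-1 where its transcripts of other types were searched too).

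The other 3 genes with a 14-base run, all pairing with guide bases 1 to 14, were SLC4A11, AMOTL1 and CHD6. Over the whole 19-base target, the site matched 17 bases in AMOTL1, 15 in SLC4A11 and 14 in each of ENO1 and CHD6. SLC4A11, a membrane transporter, was at 3.50, 3.41 and 3.65 FPKM in control and 2.49, 2.46 and 2.34 FPKM in PRMT1 KD libraries, and fell by 0.40 on the log2 scale (SE 0.070, limma adjusted p = 0.0460, just under the threshold). AMOTL1 and CHD6 were at 101% and 95.5% of the control mean, with differences of 0.01 (95% interval -0.14 to 0.17, limma adjusted p = 0.943) and -0.06 (-0.19 to 0.07, limma adjusted p = 0.610). Since the search was made because ENO1 had fallen, and the length of 14 bases is that of its own run, ENO1 is no independent case. Of the other 3 genes, 1 was called, SLC4A11. Over all genes tested, 2.05% were called and 0.986% were called lower, and a count that rests on 1 gene cannot be set against these shares. Of the 14 genes with a run of at least 13 bases with si-PRMT1-3, ENO1 included, 9 had a lower and 5 a higher mean. Of these 14, 4 lay lower without overlap and 0 higher, and the 4 include ENO1, which prompted the search. Over all genes tested, searched or not, 12.3% lay lower and 13.6% higher without overlap. For si-PRMT1-1, 2 of 5 such genes, and for si-PRMT1-2, 1 of 3 had a lower mean, and none of these 8 was called. Without overlap, 0 lay lower and 1 higher for si-PRMT1-1, and 0 lower and 2 higher for si-PRMT1-2. These small counts were not tested against those of all genes. The part of this match in the level of ENO1 was not tested.

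**Figure D4:**
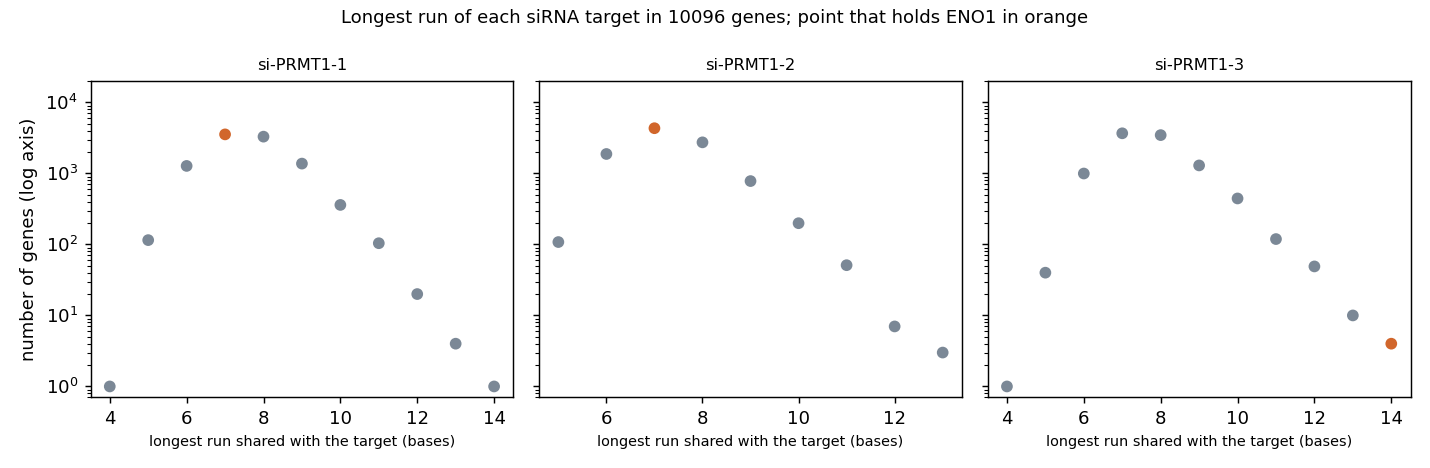
Number of genes (log axis) by the longest run of bases their transcripts share with the target of each of the 3 PRMT1 siRNAs, with the point that holds ENO1 in orange. ENO1 sits at 7 bases for si-PRMT1-1 and si-PRMT1-2 and at 14 bases, with 4 genes in all, for si-PRMT1-3.

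ENO1 shares 126 exon bases (2.39%) with ENO1-AS1 on the opposite strand. ENO1-AS1 was named after its values were seen: it held 9, 14 and 10 reads in control and 0, 3 and 2 reads in PRMT1 KD libraries, all lower and few beside those on ENO1. Whether reads were counted by strand is not stated in the sources used here, and without strand the reads of a gene and its antisense partner cannot be told apart. The 4 ENO1 pseudogenes held 0.0153% as many reads as ENO1.

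Lactate dehydrogenase is a tetramer of the A and B subunits, of which LDHA favours the making of lactate. LDHA was at 79.4, 83.1 and 79.4 FPKM in control and 77.8, 84.7 and 86.1 FPKM in PRMT1 KD libraries, and the groups overlapped (difference 0.04, 95% interval -0.08 to 0.16, limma adjusted p = 0.734). LDHB was at 30.5, 27.96 and 28.99 FPKM in control and 21.6, 28.04 and 25.6 FPKM in PRMT1 KD libraries, with a difference of -0.22 (-0.44 to 0.0040, limma adjusted p = 0.263) that rests most on PRMT1 KD replicate 1. Without that library the LDHB difference was -0.12. LDHA made up 73.4% ± 1.30 (SD, n = 3) of the 2 subunits in control and 76.8% ± 1.58 in PRMT1 KD without overlap, though PRMT1 KD replicate 2, at 75.1%, lay close to control replicate 2, at 74.8%. Of the exon bases of LDHB, 33.4% are shared on the same strand with AC010197.2, a gene that held 0.0259% as many reads as LDHB. The level of LDHB and the shares of the 2 subunits thus depend on how reads in shared exons were assigned, which is not stated in the sources used here.

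Lactate leaves the cell through SLC16A1 (MCT1) and SLC16A3 (MCT4), with BSG (basigin) as the chaperone that brings them to the surface. SLC16A1 was at 34.6, 35.9 and 36.4 FPKM in control and 39.0, 40.0 and 42.9 FPKM in PRMT1 KD libraries. All 3 PRMT1 KD libraries were higher, at 114% of the control mean, and the difference of 0.18 (95% interval 0.06 to 0.30) did not pass the adjusted threshold (limma adjusted p = 0.115). SLC16A1 accounted for 95.5% ± 0.622 (SD, n = 3) of the signal of SLC16A1 and SLC16A3 in control and 96.3% ± 0.328 in PRMT1 KD. This share leaves out SLC16A7 and SLC16A8 of the same family, with means of 2.29 and 2.09 FPKM in control and 2.75 and 2.20 FPKM in PRMT1 KD. BSG had a mean of 82.3 FPKM in control and 86.2 FPKM in PRMT1 KD (limma adjusted p = 0.622). SLC16A3, the transporter of highly glycolytic cells, had a mean of only 1.68 and 1.55 FPKM, and the gene CSNK1D, which overlaps 5.36% of its exon bases on the opposite strand, held more than 10 times as many reads.

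None of the 6 pentose phosphate genes passed the limma test, 4 with a higher and 2 with a lower mean. PGD, which oxidises 6-phosphogluconate and yields NADPH, was at 44.4, 41.8 and 41.6 FPKM in control and 38.3, 40.9 and 38.8 FPKM in PRMT1 KD libraries. PGD was lower in all 3 PRMT1 KD libraries, at 92.3% of the control mean, with a difference of -0.11 (95% interval -0.23 to 0.0017, limma adjusted p = 0.262). PGLS, the lactonase before it, had a mean of 14.6 FPKM in control and 13.4 FPKM in PRMT1 KD, with overlap. The 4 genes of the non-oxidative branch, which trades carbon between pentoses and glycolysis, had higher means in PRMT1 KD, each with overlapping libraries. TALDO1 (transaldolase) went from 57.4 to 61.2 FPKM, TKT (transketolase) from 49.8 to 52.0 FPKM, RPE (an epimerase) from 15.05 to 16.1 FPKM and RPIA (an isomerase) from 14.4 to 15.3 FPKM, with differences of 0.06 to 0.09 and limma adjusted p of 0.434 to 0.653. RPE shares 23.8% of its exon bases with KANSL1L on the opposite strand, a gene with 39.5% as many reads.

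**Figure D5:**
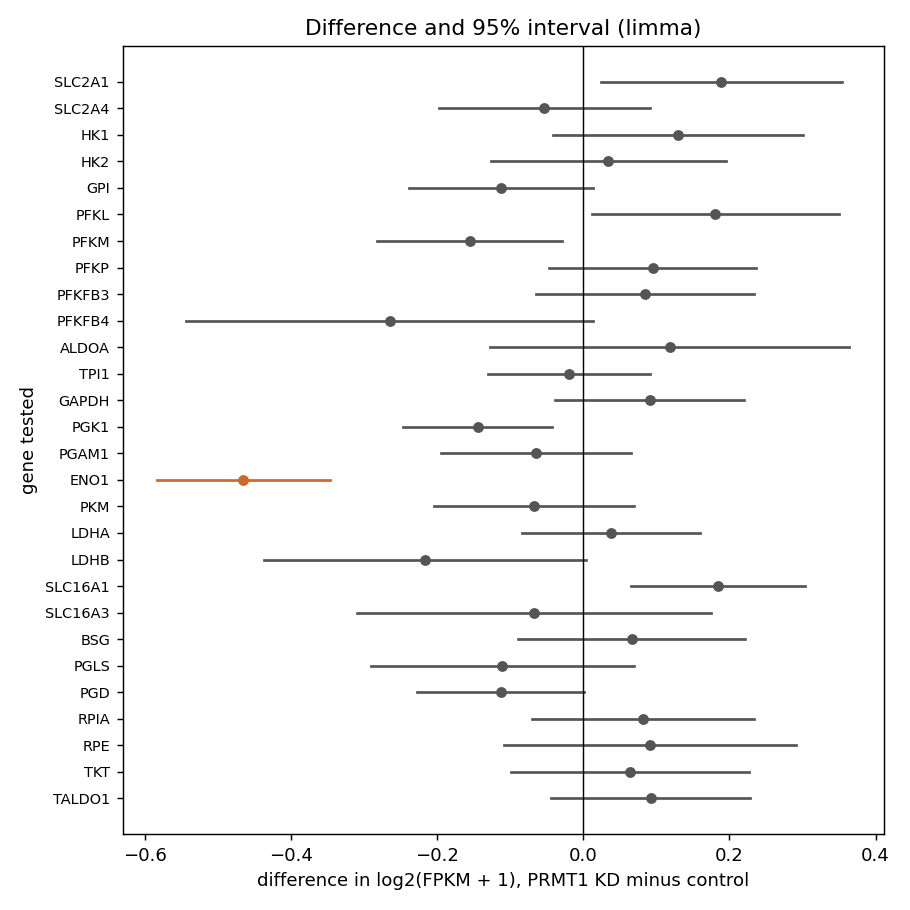
Difference in log2(FPKM + 1), PRMT1 KD minus control, with its 95% interval from limma for the 28 genes tested, in pathway order and with ENO1, the gene with an adjusted p under 0.05, in orange. ENO1 lies at -0.47 and the other 27 genes between -0.26 (PFKFB4) and 0.19 (SLC2A1) on this scale, which understates low genes such as PFKFB4 (-0.52 by voom).

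HIF1A encodes the oxygen-regulated subunit of hypoxia-inducible factor 1, which is controlled mostly through protein stability. It was nearly absent from the table, with 5, 2 and 3 reads in control and 5, 4 and 1 reads in PRMT1 KD libraries, 20 reads in all. With so few reads no difference could be measured. Its neighbours on chromosome 14 within 1 Mb were mixed: MNAT1 had a mean of 5.86 FPKM over the 6 libraries, TRMT5 of 3.37 FPKM and SNAPC1, the next gene, of 2.23 FPKM, while PRKCH, TMEM30B and SYT16 were near 0. Its partner ARNT, the constant subunit, had a mean of 16.4 FPKM in control and 17.96 FPKM in PRMT1 KD, and EPAS1, the related alpha subunit, stayed near 1 FPKM, at 0.857 and 0.992 FPKM.

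Of 11 genes of oxygen sensing and of regulators of glycolysis, 8 were tested, and 1 changed, where 2.05% of all genes tested were called and 6.08% of those with a mean of at least 100 FPKM, as MYC has. MYC, which drives many glycolysis genes, rose from 223 ± 11.1 FPKM (SD, n = 3) in control, with a range of 212 to 234 FPKM, to 279 ± 10.2 FPKM in PRMT1 KD, with a range of 267 to 286 FPKM. The difference was 0.32 (95% interval 0.20 to 0.44, limma adjusted p = 0.0399), and the call was lost in 9 of 14 alternatives, each of the 6 fits without 1 library included, with differences of 0.28 to 0.36. VHL, the ligase that removes hydroxylated alpha subunits, was at 35.0 FPKM in control and 34.9 FPKM in PRMT1 KD.

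Of 28 genes that hypoxia-inducible factors are known to induce, 18 were tested and none had a limma adjusted p under 0.05, while 6 had an unadjusted p under 0.05 (33.3%, against 19.5% of all genes tested) and 7 did not overlap (38.9%, against 25.9%), 4 higher and 3 lower. DDIT4 was the highest, at 53.8 FPKM in control and 53.1 FPKM in PRMT1 KD. ERO1A, an oxidase of protein folding, differed by 0.29 (limma adjusted p = 0.0629) and P4HA1, a collagen prolyl hydroxylase, by 0.23 (0.160), while HMOX1, which degrades haem, differed by -0.62 (0.0861) and INSIG2, a brake on sterol synthesis, by -0.24 (0.156). HMOX1 was at 13.8, 9.59 and 8.96 FPKM in control libraries, and without control replicate 1 its difference was -0.44. CA12 and P4HA2 were at 0 in all 6 libraries, and CA9 was listed at 0 in the 3 control libraries. The median difference over the list was -0.02.

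Of 54 related sugar genes, 28 were tested and none had a limma adjusted p under 0.05, while 8 had an unadjusted p under 0.05 (28.6%, against 19.5% of all genes tested) and 10 did not overlap (35.7%, against 25.9%), 3 higher and 7 lower. The median difference over the list was -0.0025. GYS1 (glycogen synthase) was the highest by its mean over all libraries, at 38.6 FPKM in control and 34.4 FPKM in PRMT1 KD, where GFPT1, at 38.6 FPKM, was higher. LDHD, a mitochondrial dehydrogenase of D-lactate, was at 12.1 ± 0.454 FPKM (SD, n = 3) in control and 7.43 ± 1.56 FPKM in PRMT1 KD, a difference of -0.65 (95% interval -0.95 to -0.36) that lay just past the threshold (limma adjusted p = 0.0517). ENO3, the muscle enolase, was at 20.3 and 17.6 FPKM, with a difference of -0.20 (-0.31 to -0.08, limma adjusted p = 0.102), so that ENO1 remained 14.2 times as high in PRMT1 KD, after 17.02 times in control. GFPT1, which draws fructose 6-phosphate into amino sugars, differed by 0.24 (limma adjusted p = 0.0629), and GBE1, the glycogen branching enzyme, by 0.29 (0.114).

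Reads of overlapping genes and pseudogenes bear on some of these levels. Besides those given above, 10 genes that share exon bases with a member held over 1% as many reads as it. On the opposite strand these were SENP1, which shares 8.58% of the exon bases of PFKM and held 29.5% as many reads, SLC16A1-AS1 (3.29% of SLC16A1), AC010618.3 (9.17% of PGLS), and YBX2, AC019069.1, UNC5A and SPSB2, each with under 1% of the exon bases of SLC2A4, HK2, HK3 and TPI1. On the same strand they were ATP7A (1.76% of PGK1) and UCN2 (4.73% of PFKFB4). The tenth, YOD1, on the strand opposite to PFKFB2 with 3.09% of its exon bases, was at 4.70 to 7.70 FPKM, far above PFKFB2. AC019069.1 beside HK2 held 109, 90 and 113 reads in control and 70, 59 and 49 reads in PRMT1 KD libraries, all lower, while HK2 overlapped. Pseudogenes held 1.59% as many reads as TPI1 and under 1% as many as any other tested member. The part of these genes in the differences was not tested.

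The promoters of the members were searched for the core letters of a hypoxia response element, GCGTG and ACGTG, and for CACGTG, the E-box that MYC binds and that contains ACGTG, on both strands. RefSeq windows on GRCh38.p14 from 250 bases before to 50 bases after a start site held 30 of the 34 members, in 57 windows, since a gene can have several starts. GCGTG stood in 40.4% of the member windows and 36.5% of all windows, ACGTG in 33.3% and 21.4%, and CACGTG in 12.3% and 7.26%. The windows of ENO1 and PGK1 are shown since both genes lie in lower glycolysis and were lower in every PRMT1 KD library, with GCGTG and ACGTG of either strand in capitals (ENO1 chr1:8878637-8878936, minus strand, and PGK1 chrX:78103998-78104297, plus strand):

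ENO1 promoter: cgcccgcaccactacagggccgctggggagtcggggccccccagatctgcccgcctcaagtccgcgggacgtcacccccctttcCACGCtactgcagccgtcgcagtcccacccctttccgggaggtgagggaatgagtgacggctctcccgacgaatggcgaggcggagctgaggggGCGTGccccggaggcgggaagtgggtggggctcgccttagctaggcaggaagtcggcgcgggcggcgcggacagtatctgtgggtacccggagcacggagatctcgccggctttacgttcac

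PGK1 promoter: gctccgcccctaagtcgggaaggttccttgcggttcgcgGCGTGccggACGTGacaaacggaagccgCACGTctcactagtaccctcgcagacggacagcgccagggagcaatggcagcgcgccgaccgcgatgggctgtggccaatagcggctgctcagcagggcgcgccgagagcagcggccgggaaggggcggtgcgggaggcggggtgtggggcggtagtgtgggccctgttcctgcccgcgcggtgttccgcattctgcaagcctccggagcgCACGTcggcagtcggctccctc

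The ENO1 window held 2 matches to GCGTG and 0 to ACGTG, and the PGK1 window 1 and 3. A match to these letters is a description of the window and no evidence of binding.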

How the data were processed

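RNA-seq of MM.1S cells was analysed in 3 control and 3 PRMT1 KD libraries, grouped by the sample labels. The deposited table holds, for every gene, its FPKM in each library as computed by the authors. The submitters' processing notes name featureCounts 1.5.0-p3 and hg38, and the aligner is not given in the sources used here. FPKM multiplied by gene length gave whole multiples of 1 step per library for 100% of values above 0 (tolerance 0.001), from which reads were worked back. All 58735 identifiers had the same coordinates in GENCODE 29.

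log2(FPKM + 1) of the 13585 genes with a mean of at least 1 FPKM was fitted in R 4.3.3 with limma 3.58.1 (trended empirical Bayes, two-sided, Benjamini-Hochberg adjustment over all genes tested). An adjusted p under 0.05 was called changed. The scale understates changes of low genes. Paralog shares and ratios were compared by exact permutation tests. Values in each library are given for genes that were called, genes whose groups do not overlap and the highest paralog of each group, and of the other gene lists for genes called, the highest gene and up to 4 non-overlapping genes. The members, lists and tests were chosen with earlier results of these data known. The m6A data and other experiments of the study were not used here.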

Additional observations from a re-analysis of the deposited data

How the results depend on the processing

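With 1 member called (ENO1), the count was 0 without a filter on low values, 0 without the mean-variance trend, 6 at an unadjusted p under 0.05, and 0 to 1 when each library was left out in turn, where 13 to 94 of all genes were called against 279. Of the genes in the 3 wider lists, 1 was called (MYC), and the count was 0 without a filter, 5 at a mean of at least 5 FPKM, 2 on TPM, 0 after median scaling, 6 by voom on the reads, 0 without the trend and 0 to 1 when each library was left out. By voom 891 of all genes were called. The limma adjusted p of ENO1 was 0.0674 without a filter and 0.0559 without the trend. Members whose groups do not overlap numbered 8 to 16 when each library was left out, which leaves fewer libraries to overlap. The median of the members ranged from -0.010 to 0.060, and PRMT1 stayed lower in all 14 alternatives. The non-overlapping paralog shares numbered 10 in the main setting and 10 to 14 in the alternatives. Within a group a larger share of any paralog lowers that of the others, so these are not counts of separate shifts. No such count was made over all genes.

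Same-numbered libraries correlated in their deviations by 0.02, 0.063 and 0.101, so the numbers were not taken to pair them, though all 6 libraries correlated best with their own number. With the replicate number as a replicate block, 204 genes and 1 member were called, and ENO1 had a limma adjusted p of 0.0437 and SLC4A11 of 0.0646.

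HIF1A, SLC2A3, PFKFB2, HK3, ALDOC and ENO2 had a mean under 1 FPKM and were not tested, and PFKFB4, a low gene, had the widest interval.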
